A study of Arabidopsis thaliana with 15 samples.

Results

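Abscisic acid (ABA) promotes leaf senescence, and its level in a tissue depends on both its synthesis and its breakdown. The transcripts of 9 *Arabidopsis* genes of these opposite steps were examined, 5 for synthesis and 4 for breakdown. The genes are listed by locus, and they were chosen with earlier results of these data known. The synthesis genes were *NCED2* (AT4G18350), *NCED3* (AT3G14440), *NCED5* (AT1G30100), *NCED9* (AT1G78390) and *AAO3* (AT2G27150). The breakdown genes were *CYP707A1* (AT4G19230), *CYP707A2* (AT2G29090), *CYP707A3* (AT5G45340) and *CYP707A4* (AT3G19270). All 9 had a probe, out of 25410 loci with a probe on the array, and 13 of its 43603 probes belonged to them.

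9-cis-epoxycarotenoid dioxygenases (NCEDs) cut an epoxycarotenoid in the plastid to give xanthoxin, which is the committed and usually limiting step of ABA synthesis. Of this family, *NCED3* is the member best known for its response to drought in leaves, whereas *NCED5* and *NCED9* are best known from seeds. AAO3 is the abscisic aldehyde oxidase that catalyzes the last step. The CYP707A enzymes are ABA 8'-hydroxylases of the cytochrome P450 family, which start the catabolism of the hormone to phaseic acid, and *CYP707A2* is best known from seed germination and *CYP707A3* from the response to rehydration.

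All plants were of the Col-0 background. At 50 days after sowing (DAS), leaves of untreated wild-type (WT) plants were compared with those of plants carrying 35S:ANAC046:NOS (OX), in which the constitutive 35S promoter drives the NAC transcription factor ANAC046 in all tissues. At 5 days of dark treatment (DAD), WT plants were compared with the *anac046* mutant (KO), which is a single transposon-insertion line, and with plants carrying 35S:ANAC046-SRDX:NOS (SRDX), in which the same promoter drives ANAC046 fused to a repression domain. Each group had 3 arrays, 15 in all. The Methods describe 3 independent lines for OX and for SRDX, taken here as line 1, 2 and 3 after the replicate number. For the dark-treated groups, the labels name seedlings on agar under foil and the Methods name leaves. The labels do not say whether the WT and KO replicates came from separate cultures, and p-values then measure the spread between these arrays, which may be technical.

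Values are log2 of one-color spot signals relative to the array median, after quantile normalization of all 15 arrays. A gene was tested where its brightest probe was well above background on all 3 arrays of at least 1 group, and called at an adjusted p under 0.15 (limma, Benjamini-Hochberg over all genes tested). Probes whose accession gave no locus were counted under that accession in these totals. Between 62.2% and 80.9% of spots were well above background on an array, with 67.0% to 68.7% in KO and 76.3% to 80.9% in WT at 5 DAD. The third SRDX line, at 68.4%, shared a slide with the KO arrays, while the other SRDX lines, at 77.5% and 77.6%, lay on a slide of their own. The arrays of each WT group, of OX and of KO lay together on 1 slide. OX and KO were on other slides than their WT arrays, and so was SRDX. Effects of slide and of genotype thus cannot be told apart for OX, KO or SRDX against WT. A random block for the slide, used at 5 DAD, cannot separate them either, and no fit with the slide was made for OX. *ANAC046* (AT3G04060) gave signals of 5.11 to 5.35 in WT at 5 DAD and 6.29 to 6.42 in SRDX, and was at least 272-fold lower in KO, where it was not well above background. In OX it was 2.64 in line 1, 8.95 in line 2 and 9.01 in line 3, against 0.42 to 0.77 in WT at 50 DAS. The 6 leaf mesophyll markers, among them *RBCS1A* and *LHCB2.1*, were well above background on every array. Of 10 root markers, 7 were so on all 3 arrays of WT at 5 DAD, 4 in SRDX, 3 in KO and 1 in each group at 50 DAS. In these bulk samples, fewer cells of a type and less RNA per cell cannot be told apart.

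The plot of signals by array shows that the 9 genes fell into 3 kinds by brightness. *NCED3*, *AAO3*, *CYP707A1*, *CYP707A2* and *CYP707A3*, 5 genes in all, were well above background on all 15 arrays. *NCED2* was well above background on 11 arrays and *CYP707A4* on 13. *NCED5* was well above background on 6 arrays and *NCED9* on 4, never on all 3 arrays of a group, so neither was tested in any comparison.

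**Figure D1:**
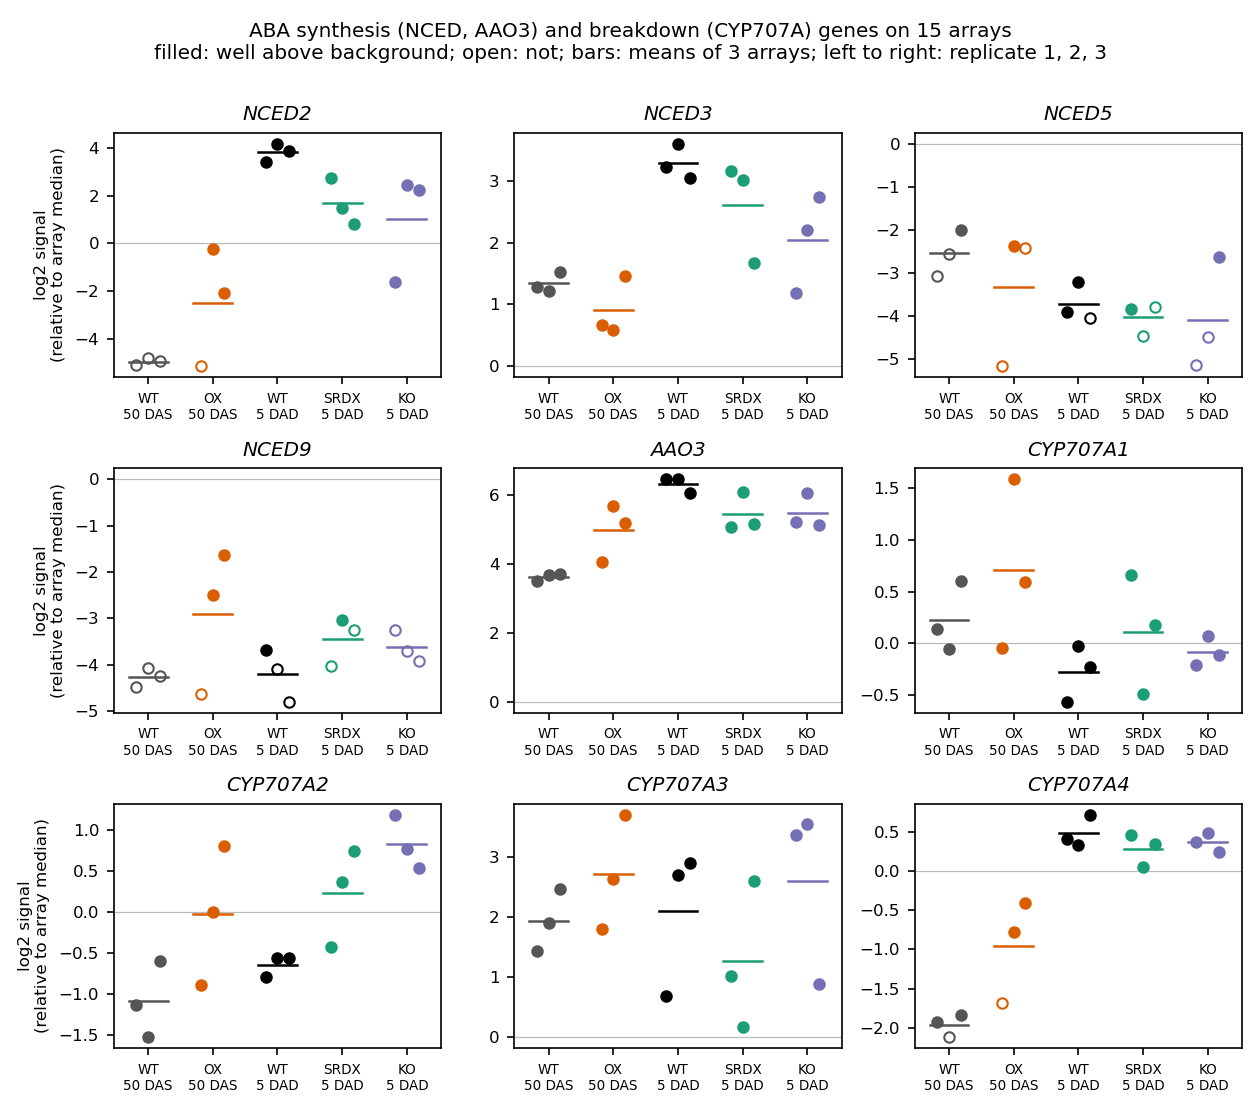
Log2 signal relative to the array median (vertical axes, each with its own scale) of the 9 genes on the 15 arrays, by group. Points are arrays in the order of replicates 1, 2 and 3, open where not well above background, and bars are means of 3 arrays. *NCED2* is highest in WT at 5 DAD and lies apart from every other group, and *CYP707A3* spreads over more than 1 log2 unit within each group.

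The first question was how the levels differed between the WT groups of both stages. *NCED2*, *NCED3*, *AAO3*, *CYP707A2* and *CYP707A4* were higher in WT at 5 DAD than in WT at 50 DAS, and *CYP707A1* was lower. Thus 5 of 7 tested genes were called higher, beside 45.9% of all 25674 genes tested, and 1 was called lower, beside 40.2%. The median log2 change was 1.95 over these 7 genes and 0.13 over all genes, or 0.28 under scaling to the 75th percentile. *NCED2* and *CYP707A4* passed the filter only through WT at 5 DAD, where they were high, which favours higher calls. Among genes well above background on every compared array, 3 of 5 were called higher and 1 lower. Their median change was then 0.45, against -0.13 over all 19318 such genes, of which 7888 were higher and 9315 lower. Age, light, tissue, growth medium, slide and scan day all differed between these groups and cannot be told apart. Leaf mesophyll markers, summed, were at 13.0 in WT at 50 DAS and 9.49 to 9.59 in WT at 5 DAD, 6 of 6 called lower, and the 3 guard cell markers were called lower too. Of 7 root markers tested, 4 were called higher and 1 lower, and of 3 seed markers tested, 3 were called higher. All of these except *NRT2.1* passed the filter only through WT at 5 DAD, which favours higher calls. Summed, the 10 root markers were at 0.38 to 0.71 at 50 DAS and 0.51 to 0.82 at 5 DAD. The 5 seed markers were at -1.28 to -0.74 and 0.11 to 0.33. The part of these markers in the changes of the 9 genes was not tested.

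*NCED2* gave log2 signals of -5.09, -4.80 and -4.93 in WT at 50 DAS, none well above background, and of 3.41, 4.17 and 3.84 in WT at 5 DAD. It went from undetected to a clear signal and was at least 81.2-fold higher at 5 DAD (adjusted p = 4.6e-07). This bound sets the dimmer group at the lowest signal well above background on each array.

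*AAO3* gave 3.50, 3.68 and 3.73 in WT at 50 DAS and 6.47, 6.47 and 6.06 in WT at 5 DAD. All WT arrays at 5 DAD were above all WT arrays at 50 DAS, by 6.49-fold on average (log2 change 2.70, SE 0.14, adjusted p = 7.82e-06). *NCED3* gave 1.28, 1.22 and 1.52 at 50 DAS and 3.23, 3.61 and 3.06 at 5 DAD. These groups also lay apart, with a 3.87-fold difference (log2 change 1.95, SE 0.17, adjusted p = 6.73e-05).

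On the side of breakdown, *CYP707A4* gave -1.92, -2.12 and -1.84 in WT at 50 DAS, the second array not well above background, and 0.41, 0.34 and 0.72 in WT at 5 DAD. It was 5.45-fold higher in the dark-treated group, with no overlap (log2 change 2.45, SE 0.14, adjusted p = 9.38e-06). The changes of *CYP707A1* (-0.50, adjusted p = 0.0726) and *CYP707A2* (0.45, adjusted p = 0.129) were smaller and their groups overlapped. Leaving out 1 array took the call away from *CYP707A1* in 2 of 6 cases, with an adjusted p of up to 0.199, and from *CYP707A2* in 5 of 6, with an adjusted p of up to 0.322. *CYP707A3* differed by 0.16 (95% interval -1.38 to 1.69) and was not called.

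The comparison of KO with WT at 5 DAD asked which of these transcripts depend on ANAC046 in darkness. The synthesis genes *NCED2*, *NCED3* and *AAO3* were lower in KO than in WT, whereas *CYP707A2*, for breakdown, was higher. The other tested breakdown genes, *CYP707A1*, *CYP707A3* and *CYP707A4*, were not called. This was 3 of 7 tested genes lower, beside 14.2% of all 25192 genes tested, and 1 of 7 higher, beside 18.2%. Over all genes there were 4593 higher and 3571 lower calls, or 3764 and 5401 under scaling to the 75th percentile, while the calls of the 9 genes were the same 1 higher and 3 lower. The median log2 change of the 7 genes was -0.12, against 0.03 over all genes.

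*NCED2* gave -1.60, 2.44 and 2.22 on the KO arrays, against 3.41, 4.17 and 3.84 on the WT arrays. All KO arrays were below all WT arrays, and the first was far below the other KO arrays. The mean log2 change was -2.79 (SE 0.99, adjusted p = 0.0921), a 6.91-fold lower level, and without KO replicate 1 it was -1.48 (adjusted p = 0.0999).

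*NCED3* gave 1.19, 2.21 and 2.74 in KO and 3.23, 3.61 and 3.06 in WT. The groups did not overlap, and the level was 2.38-fold lower in KO (log2 change -1.25, SE 0.48, adjusted p = 0.11). The first KO array was again the lowest, and without it the change was -0.82 and not called (adjusted p = 0.248), nor was it called without the second (adjusted p = 0.16).

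*AAO3* gave 5.24, 6.06 and 5.13 in KO and 6.47, 6.47 and 6.06 in WT. The second KO array and the third WT array were at the same level, so the groups overlapped. The level was 1.81-fold lower in KO (log2 change -0.86, SE 0.34, adjusted p = 0.121), which was not called without the first or the third KO array (adjusted p = 0.237 and 0.31).

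*CYP707A2* gave 1.18, 0.77 and 0.53 in KO and -0.79, -0.56 and -0.57 in WT. All KO arrays were above all WT arrays, by 2.76-fold on average (log2 change 1.47, SE 0.30, adjusted p = 0.0229). This was the only one of the 4 calls in KO that held with each single array left out, with adjusted p between 0.0452 and 0.0926. It alone was also called with the slide as a random block (adjusted p = 0.0569). Since no slide held both KO and WT arrays, that block cannot separate slide from genotype.

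The 3 lower calls in KO were all lost when any 1 of the 3 WT arrays was left out, with adjusted p from 0.173 to 0.289, and with the slide as a random block, where adjusted p was 0.181 for *NCED2*, 0.216 for *NCED3* and 0.223 for *AAO3*. Their direction was the same in each of these fits. Calls over all 25192 genes fell too, from 4593 higher and 3571 lower. Without 1 WT array there were 1829 to 2441 higher and 1201 to 1752 lower calls, and with the slide block 2829 and 1948. Leaf mesophyll markers, summed, were at 9.49 to 9.59 on the log2 scale in WT at 5 DAD and at 10.4 to 10.7 in KO, 5 of 6 called higher. Of 8 root markers tested, 4 were called lower and 1 was called higher in KO, and of 3 seed markers tested, 3 were called lower. Of these, *COBL9*, *EXPA18*, *PRP3*, *LRX1*, *OLEO1* and *EM1* passed the filter only through WT, which favours lower calls. Summed, the 10 root markers were at 0.43 to 0.76 in KO and 0.51 to 0.82 in WT. The 5 seed markers were at -1.22 to -0.52 in KO and 0.11 to 0.33 in WT. The part of these shifts in the changes of the 9 genes was not tested.

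**Figure D2:**
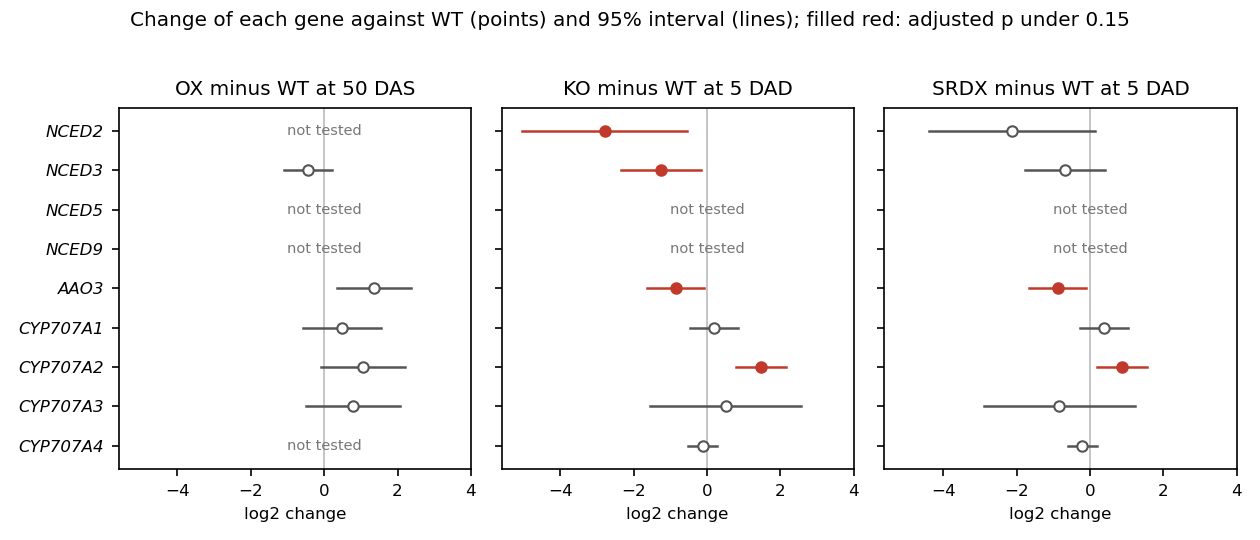
Log2 change against WT (horizontal axes) of each gene in OX at 50 DAS and in KO and SRDX at 5 DAD, with the 95% interval from limma as lines. Filled red points are genes with an adjusted p under 0.15, which are *NCED2*, *NCED3*, *AAO3* and *CYP707A2* in KO and *AAO3* and *CYP707A2* in SRDX.

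The remaining breakdown genes in KO had intervals that include 0. *CYP707A4* spanned the narrowest range of the 9 genes over the dark-treated arrays, from 0.05 to 0.72, with 0.37, 0.48 and 0.25 in KO and 0.41, 0.34 and 0.72 in WT. Its change of -0.12 had a 95% interval of -0.52 to 0.28. *CYP707A1* changed by 0.19 (95% interval -0.46 to 0.84, adjusted p = 0.678). *CYP707A3* gave 3.37, 3.55 and 0.89 in KO and 0.69, 2.70 and 2.91 in WT, so 1 array of each group stood far below the others and the interval of its change of 0.51 ran from -1.55 to 2.57.

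SRDX plants were compared with the same WT arrays to ask whether the chimeric repressor acts on the same steps. In SRDX, *AAO3* was lower and *CYP707A2* was higher than in WT. This was 1 of 7 tested genes lower, beside 8.79% of all 25192 genes tested, and 1 of 7 higher, beside 11.6%. The median log2 change was -0.68 over the 7 genes and -0.04 over all genes. Since KO and SRDX share the WT arrays, their changes are given side by side and not as independent results.

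*AAO3* gave 5.09, 6.11 and 5.16 in SRDX, which overlapped with the WT range of 6.06 to 6.47. The change was -0.88 (SE 0.34, adjusted p = 0.148), next to -0.86 in KO. *CYP707A2* gave -0.42, 0.36 and 0.74 in SRDX, all above the highest WT array at -0.56. It was 1.82-fold higher (log2 change 0.87, SE 0.30, adjusted p = 0.114), next to 2.76-fold in KO.

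*NCED2* gave 2.73, 1.49 and 0.82 in SRDX. All SRDX lines lay below all WT arrays, but the change of -2.13 was not called (SE 0.99, adjusted p = 0.22). It was called with normexp, with the authors' table and with Storey's q-values (adjusted p = 0.13, 0.114 and 0.11). *NCED3* gave 3.16, 3.01 and 1.68, and only the third line was below the WT range. Its change of -0.68 was not called (SE 0.48, adjusted p = 0.409), and without the third line it was -0.21.

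Neither call in SRDX held throughout. Both were lost without any 1 of the WT arrays and without the third SRDX line, and with the slide as a random block, where adjusted p was 0.215 for *AAO3* and 0.161 for *CYP707A2*. The call of *AAO3* was also lost without the first line (adjusted p = 0.289). Calls over all 25192 genes fell from 2925 higher and 2214 lower to 673 to 1304 and 337 to 796 without 1 WT array. Without the third line there were 1153 higher and 789 lower calls, and with the slide block 2129 and 1458. Leaf mesophyll markers were at 9.97 to 10.7 in SRDX, with 5 of 6 called higher than in WT, and their part in these changes was not tested.

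**Figure D3:**
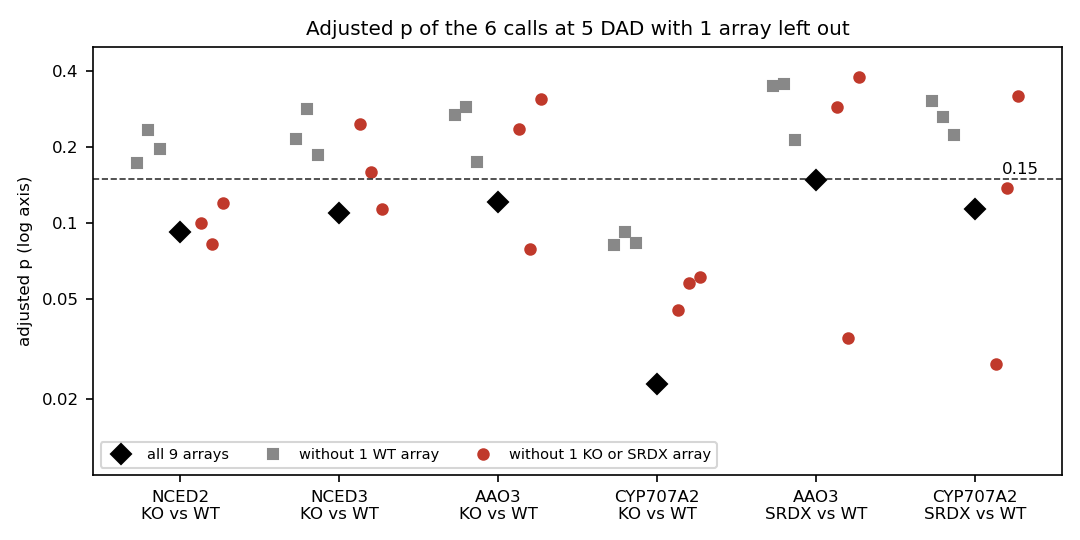
Adjusted p on a log axis for the 6 calls at 5 DAD, with all 9 arrays (diamonds), without 1 WT array (squares) and without 1 KO or SRDX array (circles). The dashed line is the limit of 0.15. Squares lie above the line for each call except *CYP707A2* in KO, whose points all lie at or below 0.0926.

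The difference between SRDX and KO was tested directly. None of the 7 tested genes was called in either direction with limma and Benjamini-Hochberg adjustment, and none had an unadjusted p under 0.05, beside 0.143% of genes called higher and 0.131% lower. All genes gave 36 higher and 33 lower calls, or 130 and 45 under scaling to the 75th percentile. *CYP707A2* was 0.60 lower in SRDX than in KO on the log2 scale, with a 95% interval from -1.28 to 0.08 and an adjusted p of 0.465. The third SRDX line, at 0.74, lay within the KO range of 0.53 to 1.18 on the slide they shared. Without this line the difference was -0.86 and was called (adjusted p = 0.139), in a fit that called 1837 of all 25192 genes higher and 1286 lower. *AAO3* differed by -0.02 (95% interval -0.80 to 0.75), *NCED3* by 0.57 (-0.52 to 1.65) and *NCED2* by 0.66 (-1.60 to 2.91). The intervals of *NCED2*, *NCED3* and *CYP707A2* hold differences as large as the changes of these genes in SRDX against WT.

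The comparison of OX with WT at 50 DAS asked which of these transcripts respond to more ANAC046 in leaves of untreated plants. No gene of the 5 tested was called with limma and Benjamini-Hochberg adjustment, beside 0.093% of 20439 genes called higher and 0.00489% called lower. *AAO3* alone had an unadjusted p under 0.05, as did 4717 of all genes. The median log2 change was 0.78 over the 5 genes and -0.07 over all genes tested.

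*AAO3* gave 4.06, 5.68 and 5.21 in OX lines 1, 2 and 3 and 3.50, 3.68 and 3.73 in WT. Each OX line was above each WT array. The change was 1.35, or 2.55-fold (SE 0.41, 95% interval 0.34 to 2.36, adjusted p = 0.195).

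*CYP707A2* gave -0.89, -0.00 and 0.81 in OX and -1.14, -1.52 and -0.60 in WT. Lines 2 and 3 were above the WT range and line 1 was within it. The change of 1.06 was not called (SE 0.47, adjusted p = 0.231).

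*CYP707A1* gave -0.05, 1.58 and 0.60 in OX and 0.14, -0.06 and 0.61 in WT, and *CYP707A3* gave 1.81, 2.64 and 3.71 in OX and 1.44, 1.91 and 2.47 in WT. In both, the first OX line was within the WT range. The changes were 0.48 (adjusted p = 0.477) and 0.78 (adjusted p = 0.356). *NCED3* went the other way, with 0.67, 0.58 and 1.46 in OX, but the third line was within the WT range of 1.22 to 1.52. Its change was -0.44 (SE 0.27, adjusted p = 0.319).

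Without OX line 1, the line with the weakest *ANAC046* signal, 4 of the 5 tested genes were called higher. In the same fit 4919 of all 20439 genes were called higher and 6678 lower, against 19 and 1 with all arrays. The 4 genes were *AAO3* (1.81, adjusted p = 0.00341), *CYP707A2* (1.49, adjusted p = 0.0318), *CYP707A3* (1.23, adjusted p = 0.0789) and *CYP707A1* (0.86, adjusted p = 0.116). *NCED3* was not among them, at -0.32 (adjusted p = 0.412). No call was made when OX line 2, OX line 3 or any WT array was left out.

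The 4 genes that were too dim to be tested in OX included *NCED2*. It gave -5.13 in line 1, not well above background, and -0.25 in line 2 and -2.07 in line 3, both well above background. No WT array at 50 DAS was well above background, and the group mean of OX was at least 1.04-fold higher. *CYP707A4* gave -1.69, -0.78 and -0.41 in OX, all above the WT range of -2.12 to -1.84, with line 1 not well above background. *NCED9* gave -4.63, -2.49 and -1.63 in OX, with lines 2 and 3 well above background, and -4.47, -4.07 and -4.25 in WT, none of them well above background. *NCED5* gave -5.18, -2.38 and -2.44 in OX and -3.07, -2.57 and -2.02 in WT, which overlapped. In *NCED2* and *NCED9*, only lines 2 and 3 were well above background and stood above all WT arrays. In *CYP707A4*, each line stood above all WT arrays, and 2 of 3 WT arrays were well above background. The share of all genes with such patterns was not counted. The 5 seed markers, summed, were at -0.39 to 2.94 in OX and -1.28 to -0.74 in WT at 50 DAS, with none well above background on all 3 arrays of either group. *EM6* was at up to 2.77 in OX, whereas *SESA1* and *CRA1* were not well above background on any of these arrays. The 10 root markers, summed, were at 0.87 to 2.12 in OX and 0.38 to 0.71 in WT, but they did not move together. By mean, *NRT2.1* (0.14 in OX, -0.94 in WT), *TIP2-3* and *CASP4* were higher in OX. The means of *COBL9*, *EXPA7*, *EXPA18*, *PRP3*, *CASP1*, *CASP2* and *LRX1* were lower in OX. The part of the seed and root markers in the OX signals was not tested.

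At 5 DAD the dim genes gave no contrast. *NCED5* lay between -5.15 and -2.64 on the 9 arrays and was well above background on 4 of them. *NCED9* lay between -4.80 and -3.04 and was well above background on 2. For *NCED5* and *NCED9* no group mean was set apart from the next, in all 5 groups.

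By mean level over the groups, *NCED2* was highest in WT at 5 DAD, followed by SRDX, KO, OX and WT at 50 DAS, and only WT at 5 DAD was set apart from its neighbour without overlap. *NCED3* ran from WT at 5 DAD over SRDX and KO to WT and OX at 50 DAS, with each group overlapping the next. *AAO3* ran from WT at 5 DAD over KO, SRDX and OX to WT at 50 DAS, and only OX and WT at 50 DAS were neighbours without overlap. *CYP707A2* had another order, with KO highest, then SRDX, OX, WT at 5 DAD and WT at 50 DAS, each overlapping the next. *CYP707A4* fell into the 3 dark-treated groups, which overlapped, then OX, then WT at 50 DAS, each without overlap. *CYP707A1* and *CYP707A3* had OX highest and no neighbours set apart.

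For *AAO3*, *CYP707A1* and *CYP707A3* the array held further probes, and their agreement varied. None of the 15 arrays had the second *AAO3* probe well above background. The second *CYP707A1* probe, for another transcript accession, was well above background on all 15 arrays but differed in direction. It changed by -0.26 in KO and -0.34 in SRDX, where the brightest probe changed by 0.19 and 0.39. Between the WT groups both probes went down, with changes of -0.998 for the second and -0.50 for the brightest. The second *CYP707A3* probe followed the brightest on each array, with changes of 0.62 in KO and -0.81 in SRDX next to 0.51 and -0.84. The wide spread of this gene within groups was thus present in both probes. It had an SD of 1.22 in WT, 1.23 in SRDX and 1.48 in KO at 5 DAD, against 0.20, 0.21 and 0.12 for *CYP707A4*.

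**Figure D4:**
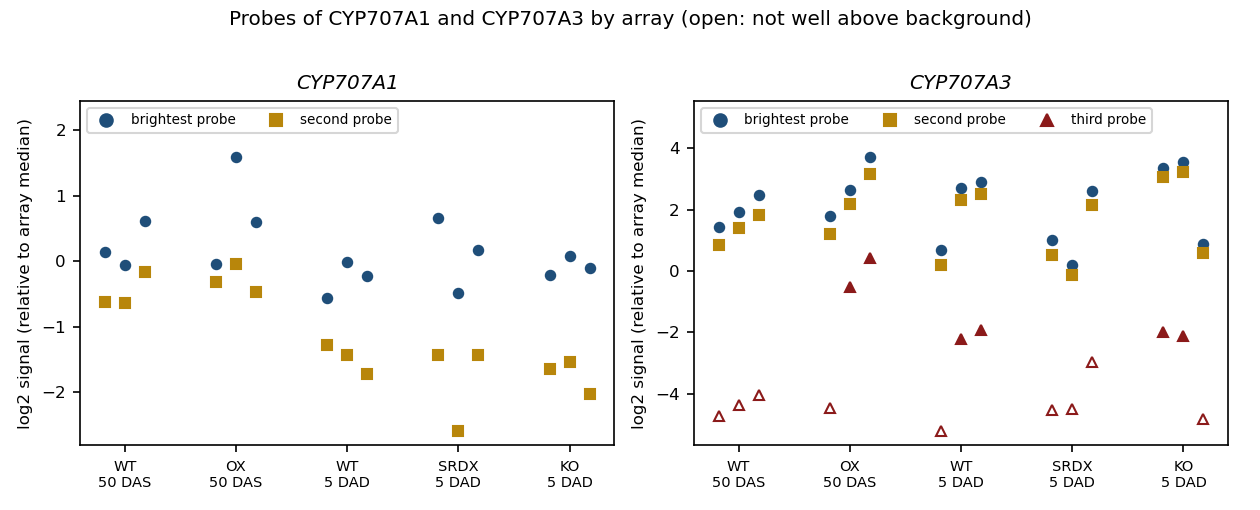
Log2 signal relative to the array median of each probe of *CYP707A1* (left) and *CYP707A3* (right) on the 15 arrays, open where not well above background. The brightest and second probes of *CYP707A3* rise and fall together within groups, whereas those of *CYP707A1* part, with the second probe lower at 5 DAD than at 50 DAS, and the dimmest probe of *CYP707A3* is filled on 6 of 15 arrays.

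The genes upstream in the pathway were looked at next. *ABA1*, *ABA4* and *ABA2*, for the epoxidation of zeaxanthin, the formation of neoxanthin and the oxidation of xanthoxin, were not called in KO, SRDX or OX. *ABA3*, which activates the molybdenum cofactor that AAO3 needs, changed by -0.49 in KO and by -0.71 in SRDX (adjusted p = 0.143 and 0.0799), and each KO and SRDX array was below each WT array. On no array was *NCED6* well above background. In this list, 1 of 4 tested genes was lower in KO and in SRDX and none was higher. The counts of this and the following lists stand beside 18.2% of all genes higher and 14.2% lower in KO. In SRDX these shares were 11.6% and 8.79%. Between the WT groups, *ABA3* was higher at 5 DAD (log2 change 1.90, adjusted p = 1.42e-05), whereas *ABA1* (-2.26), *ABA4* (-1.61) and *ABA2* (-2.90) were lower.

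Among 7 relatives of NCEDs and AAO3, 3 were lower and 1 was higher in KO, and 4 were lower and 1 was higher in SRDX. *NCED4*, a carotenoid cleavage dioxygenase that is not needed for ABA, was higher by 1.04 in KO and by 0.58 in SRDX (adjusted p = 0.0229 and 0.132). *CCD8*, of strigolactone synthesis, was changed by -1.83 in KO and by -2.00 in SRDX (adjusted p = 0.0514 and 0.0544). *AAO1*, an aldehyde oxidase with a role in auxin synthesis, changed by -0.98 in KO and by -1.03 in SRDX (adjusted p = 0.102 and 0.12). *AAO4* was lower in KO (adjusted p = 0.122), with no KO array well above background. *AAO4* passed the filter only through WT, which favours a lower call. *AAO2* (-0.95, adjusted p = 0.12) and *CCD7* (-0.78, adjusted p = 0.0639) were lower in SRDX.

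Of 8 genes for ABA conjugation and transport, 3 were lower and none was higher in KO, and the same held in SRDX. Over all genes, 14.2% were lower in KO and 8.79% in SRDX. *BGLU18*, a glucosidase that releases ABA from its glucose ester, was lower by 2.79 on the log2 scale in KO (adjusted p = 0.0337) and by 1.87 in the SRDX lines (adjusted p = 0.121). *ABCG25*, an ABA exporter, changed by -0.69 in KO and by -1.22 in SRDX (adjusted p = 0.0324 and 0.0146). *DTX50*, another ABA efflux carrier, changed by -0.83 (adjusted p = 0.0428) and -0.94 (adjusted p = 0.0415). The conjugating enzymes *UGT71B6* and *UGT71C5* were not called.

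Of 10 ABA receptor genes tested at 5 DAD, 3 were higher and 1 was lower in KO, and 1 was higher and 1 was lower in SRDX. The counts in SRDX are near the shares over all genes, 11.6% higher and 8.79% lower. *PYL3* changed by -2.87 in KO and by -3.02 in SRDX (adjusted p = 0.0209 and 0.0252). *PYL8* was higher in both (1.13, adjusted p = 0.058, and 1.43, adjusted p = 0.0431). *PYL4* (0.96, adjusted p = 0.0294) and *PYL6* (1.30, adjusted p = 0.0794) were higher in KO, next to -0.06 and -0.44 in SRDX, and the differences between SRDX and KO were not called (adjusted p = 0.18 and 0.231).

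Of 9 kinase and transcription factor genes of ABA signalling tested at 5 DAD, only *SNRK2.2*, a kinase that the receptors release from inhibition, was called, with changes of 0.41 in KO and 0.48 in SRDX (adjusted p = 0.133 and 0.12). Among 4 transcription factors known to act on *NCED* or *AAO3* promoters, *MYB96* was higher in KO (1.40, adjusted p = 0.019) and SRDX (1.06, adjusted p = 0.0477). *ATAF1*, an activator of *NCED3*, was lower in KO (-0.63, adjusted p = 0.14), and *NAP*, an activator of *AAO3*, was lower in SRDX (-0.52, adjusted p = 0.0983). *WRKY57* was the single gene of all these lists called in OX, where it was higher by 1.31 (adjusted p = 0.131), and the lists held 0 to 3 genes each with an unadjusted p under 0.05 there. No gene of these lists was called between SRDX and KO with limma, and 0 to 3 per list had an unadjusted p under 0.05. Between the WT groups, where 45.9% of all genes were called higher and 40.2% lower, 4 of 7 relatives were higher and 3 lower at 5 DAD. So were 5 and 1 of 8 conjugation and transport genes, 6 and 5 of 11 receptors, 6 and 3 of 9 kinases and transcription factors and 2 and 1 of 4 regulators. *CCD7*, *CCD8*, *AAO4*, *ABCG40*, *PYL3*, *PYL6*, *PYL13* and *ABI3* passed the filter only through WT at 5 DAD, which favours higher calls. *PYL2* passed it only through the other WT group, which favours a lower call.

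**Figure D5:**
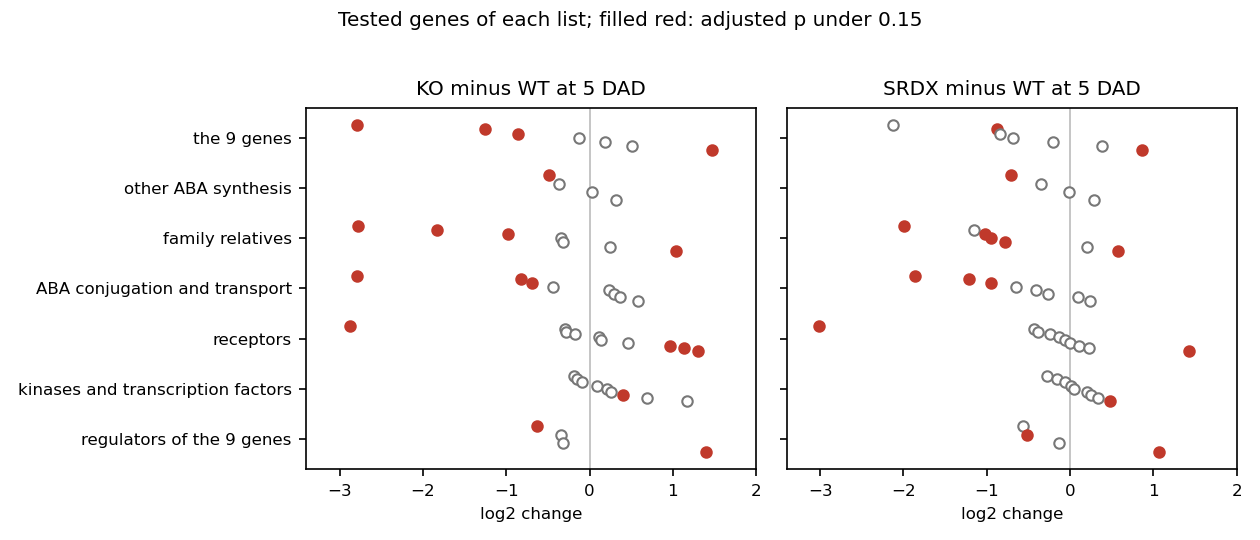
Log2 change in KO (left) and SRDX (right) against WT at 5 DAD for each tested gene of the 9 genes and of 6 lists of ABA-related genes, 1 point per gene. Filled red points have an adjusted p under 0.15, and the genes for conjugation and transport hold 3 such points, all lower, in each panel.

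Likeness over the 15 arrays was measured for the 5 genes that were well above background throughout, against 15592 loci. The points share the 2 experiments, so these values mainly compare patterns over stage and genotype together, and are given as descriptions. *AAO3* was most like *PYD1*, of pyrimidine breakdown (Pearson r = 0.99), and *GDI2* (0.98). *NCED3* was most like *GPAT2* (0.97) and *ABCB9* (0.94). *CYP707A2* was most like *ATN1* (0.91) and AT2G35900 (0.90), *CYP707A1* like *LTP3* (0.88) and *BTI3* (0.87), and *CYP707A3* like *CBF2*, a factor of the cold response (0.84), and *DIC2* (0.79). Among the 5 genes themselves, r ran from -0.47 for *NCED3* with *CYP707A1* to 0.65 for *NCED3* with *AAO3*.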

How the data were processed

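Transcripts of 5 groups were hybridized to 15 Agilent arrays with a single dye. The authors deposited spot intensities from Feature Extraction (version 11.5.1.1 in the file headers, version 9.1.3.1 in the submitters' processing notes), with background subtracted and spatial trends removed, with further columns that flag outlier spots, saturated spots and spots well above background. They also deposited a table of normalized values, read here as natural log since 12 of 15 pairs of arrays matched the intensities on that scale to within 0.0001 over the 10 brightest probes. It was turned into log2 and served as an alternative only.

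Spots with an outlier flag, 1 to 13 per array, were left out. Each signal was scaled to its array's median of passing spots, averaged per probe, quantile normalized and taken as log2. Accessions gave a locus in TAIR10.1 for 34348 of 43603 probes, and the brightest probe stood for a gene. The 6 arrays at 50 DAS, the 9 at 5 DAD and the 6 WT arrays each had a fit of their own (limma 3.58.1, R 4.3.3). A bound replaces the fold where all arrays of a group lacked a signal well above background. Intervals are at 95%. The number of arrays limits the precision.

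The 9 genes and the lists were chosen with earlier results of these data known. From the lists, genes past the limit in at least 1 genotype comparison are named (up to 6 per list), with the 2 loci most like each gene. Other genes of the lists are named for their role. Alternatives were scaling to the 75th percentile, normalization within each experiment, normexp with an offset of 50, the authors' table, 2 other filters, Storey's q-values, a limit of 0.05, the mean of a gene's probes, a joint fit of the 15 arrays, a block for the slide or for the replicate number, and omission of single arrays. Replicate numbers did not pair the arrays. Figures were drawn with matplotlib 3.10.9. No sequences were used here.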

Additional observations from a re-analysis of the deposited data

Results flagged for a closer look

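The dimmest *CYP707A3* probe, which entered only the alternative with the mean of a gene's probes, was well above background on 2 of 3 OX arrays and on 0 of 3 WT arrays at 50 DAS. It gave 0.43 in line 3 and -0.54 in line 2, both well above background, and -4.47 in line 1, which like all 3 WT arrays at 50 DAS (-4.72, -4.38 and -4.05) was not well above background. The mean log2 difference was 2.86, and it was not tested by itself. On the same arrays the brightest probe of the gene gave a difference of 0.78. The mean of the gene's probes gave 1.49 and was not called (limma, adjusted p = 0.258). With 3 arrays per group, single outlying arrays were not looked for by a formal rule.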

How the results depend on the processing

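The log2 changes were stable in direction, with 13 sign changes among all recomputed changes of single genes, all for changes that were not called. *CYP707A1* in KO went to -0.037 with the mean of all probes, which takes in the second probe of opposite direction, and *CYP707A3* in KO ranged from -0.20 to 1.36 when 1 array was left out. Between SRDX and KO, *CYP707A4* went to 0.0080 with 75th percentile scaling and *AAO3* to 0.12 with the mean of all probes. When 1 array was left out, the ranges there were -0.65 to 1.37 for *NCED2*, -0.35 to 0.27 for *AAO3*, -0.075 to 0.50 for *CYP707A1* and -0.17 to 0.036 for *CYP707A4*, and between the WT groups -0.25 to 0.86 for *CYP707A3*.

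The counts of called genes moved more. In OX, where none was called, 2 were with 1 fit of all 15 arrays and 4 with Storey's q-values (3 higher, 1 lower), and 0 to 4 when 1 array was left out. The joint fit called 2424 genes higher and 3269 lower of all 20439, and Storey's q-values 5042 and 7015. In KO, 4 became 1 with a limit of 0.05 and 1 with the slide as a random block, and 1 to 3 when 1 array was left out. Of all 25192 genes, the limit of 0.05 called 1909 higher and 1189 lower in KO, and the slide block 2829 and 1948. Without 1 array these calls were 1829 to 4345 and 1201 to 3170. In SRDX, 2 became 1 with 75th percentile scaling and with the mean of all probes, 0 with no filter on dim probes, with 1 fit of all arrays, with a limit of 0.05 and with the slide as a random block, and 0 to 3 when 1 array was left out. It became 3 with normexp, with the authors' table and with Storey's q-values. Of all genes, the limit of 0.05 called 1031 higher and 578 lower in SRDX, and the slide block 2129 and 1458. Without 1 array these calls were 673 to 5002 and 337 to 4614. Between SRDX and KO, 0 to 1 gene was called when 1 array was left out, and between the WT groups 5. The 1 gene was *CYP707A2* without the third SRDX line, where 1837 of all genes were called higher and 1286 lower. A stricter limit calls fewer genes by construction, and the cause of the other moves was not tested.

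With the replicate number as a block, 0 genes were called in OX, 4 in KO, 2 in SRDX and 0 between SRDX and KO, the same counts as without the block. The numbers do not pair the arrays, since same-numbered arrays of KO and WT correlated at -0.18, -0.05 and -0.01 in their deviations from the group means, although those of SRDX and KO correlated at 0.21, 0.61 and -0.12. Signal over background limits *NCED5*, *NCED9* and, at 50 DAS, *NCED2* and *CYP707A4*.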
